A study of Mus musculus with 4 samples.

Results

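The core circadian clock genes were followed in mouse lung fibroblasts that had been sorted on Pdgfra, a receptor for platelet-derived growth factor. They were chosen by name, and all 10 listed genes (Arntl, Clock, Per1, Per2, Per3, Cry1, Cry2, Nr1d1, Nr1d2 and Dbp) were in the table, 1 row each, of 23444 gene symbols in all. The cells came from wild-type C57BL6 mice at embryonic day 16.5 (E16.5) and 18.5 (E18.5) and at postnatal day 7 (P7, labelled P07) and 28 (P28), with 1 library per age and no treatment or engineered allele named. Values are FPKM, fragment counts that the authors scaled for transcript length and library size. With 1 library per age there is no spread between animals, so differences are described by size and were not tested. The hour of collection is not given in the labels, and clock transcripts vary over the day, so age and time of day cannot be told apart in any value below.

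The mammalian clock is a transcriptional feedback loop that runs in nearly every cell, lung fibroblasts included. Arntl encodes BMAL1, which pairs with CLOCK and binds E-box elements in the genes of its own repressors, the PER and CRY proteins. A further loop runs through the nuclear receptors REV-ERB alpha and beta, encoded by Nr1d1 and Nr1d2, which repress Arntl, and the ROR receptors, which activate it. Dbp, a PAR bZIP transcription factor under direct E-box control, carries the rhythm to output genes through D-box elements.

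Stretches upstream of 5 members were chosen for display because they hold a motif named below, and upstream stretches without one are not shown. The stretches shown are the 250 bases before the start in the RefSeq promoter table on GRCm38.p6, in which 9 of the 10 members had 13 windows. Per2 had no window there and was not searched. Capitals mark the motifs searched on both strands of each window (250 bases before to 50 after the start): CACGTG and CACGTT (E-box forms), TTANGTAA (D-box), TAGGTCA and TGGGTCA (the element shared by REV-ERB and ROR) and TGACGTCA (the cyclic AMP response element). The capitals of Cry2 and Nr1d1, and the earlier ones of Cry1, are CACGTT read on the opposite strand.
Nr1d1 (chr11:98775378-98775627, minus strand): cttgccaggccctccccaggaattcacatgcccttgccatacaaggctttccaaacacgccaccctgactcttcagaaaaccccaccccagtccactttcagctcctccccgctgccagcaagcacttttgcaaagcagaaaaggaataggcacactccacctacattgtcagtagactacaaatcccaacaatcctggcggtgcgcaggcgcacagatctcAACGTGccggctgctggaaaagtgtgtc
Cry1 (chr10:85185055-85185304, minus strand): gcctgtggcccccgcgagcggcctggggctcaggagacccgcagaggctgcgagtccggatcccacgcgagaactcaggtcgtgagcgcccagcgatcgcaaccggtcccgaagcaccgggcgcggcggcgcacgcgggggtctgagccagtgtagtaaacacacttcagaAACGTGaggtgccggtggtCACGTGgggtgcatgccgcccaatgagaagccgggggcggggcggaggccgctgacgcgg
Cry2 (chr2:92434070-92434319, minus strand): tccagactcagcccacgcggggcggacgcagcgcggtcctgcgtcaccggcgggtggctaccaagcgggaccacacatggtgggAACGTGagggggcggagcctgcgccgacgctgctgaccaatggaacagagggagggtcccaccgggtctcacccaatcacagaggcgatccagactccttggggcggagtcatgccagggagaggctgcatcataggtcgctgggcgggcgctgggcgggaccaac
Per1 (chr11:69098699-69098948, plus strand): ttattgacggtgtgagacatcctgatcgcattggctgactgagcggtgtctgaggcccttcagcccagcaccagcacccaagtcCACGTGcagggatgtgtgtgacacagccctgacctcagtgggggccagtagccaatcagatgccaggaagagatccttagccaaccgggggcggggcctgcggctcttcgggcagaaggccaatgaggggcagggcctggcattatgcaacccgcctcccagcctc
Per3 (chr4:151044666-151044915, minus strand): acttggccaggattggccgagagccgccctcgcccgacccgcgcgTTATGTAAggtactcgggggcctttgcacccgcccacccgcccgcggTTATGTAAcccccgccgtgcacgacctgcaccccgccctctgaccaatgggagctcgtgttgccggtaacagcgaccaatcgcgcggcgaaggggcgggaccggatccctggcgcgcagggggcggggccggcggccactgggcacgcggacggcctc

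Members are counted here by gene, with a match in any of their 13 windows sufficing, while background shares are per window. The counts and shares therefore have different bases. Of the 9 matched members, Cry1 and Per1 held CACGTG, a form found in 7.15% of all 32851 windows of the table. Cry1, Cry2 and Nr1d1 held CACGTT, found in 4.68% of windows. Per3 alone among the matched members held the D-box form, in 2 places, against 2.32% of windows. In Arntl the REV-ERB and ROR form TAGGTCA began 30 bases after one of its listed starts, a form found in 2.61% of windows, and TGGGTCA (3.98% of windows) and TGACGTCA (1.79%) were in no member's window. Clock, Nr1d2 and Dbp held none of the searched forms in any window. The windows are short, and a match is a description of letters, not a bound site.

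Most clock transcripts stood at low to middling levels. At P28, 6 of 10 members reached 5 FPKM as deposited, against 2 at E16.5, 1 at E18.5 and 5 at P7, and Dbp stayed under 1 FPKM in every library. The scale of the E18.5 library differed from the rest. Its median-ratio factor, the typical level of shared genes against the mean of the libraries, was 0.581, compared with 1.15 at E16.5, 1.38 at P7 and 1.08 at P28. Levels and counts of the members are therefore given as deposited and after division by that factor, called scaled, levels and sums of other genes are as deposited unless called scaled, and ratios within a library, which the factor cannot alter, are used where they serve. Scaled, 5 members reached 5 FPKM at P28, 1 at E16.5, 2 at E18.5 and 2 at P7. Read totals are not part of FPKM, so the depth is unknown; steps between values below 0.1 FPKM put the depth of E16.5 at about 1.37 that of E18.5, 0.950 that of P7 and 1.05 that of P28. Markers of the labelled fibroblasts were abundant throughout, with Pdgfra at 88.7 to 188 FPKM and Mfap4 at 680.1 to 4400 FPKM. In sorted bulk RNA, fewer cells that express a gene and less RNA per cell cannot be told apart.

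**Figure D1:**
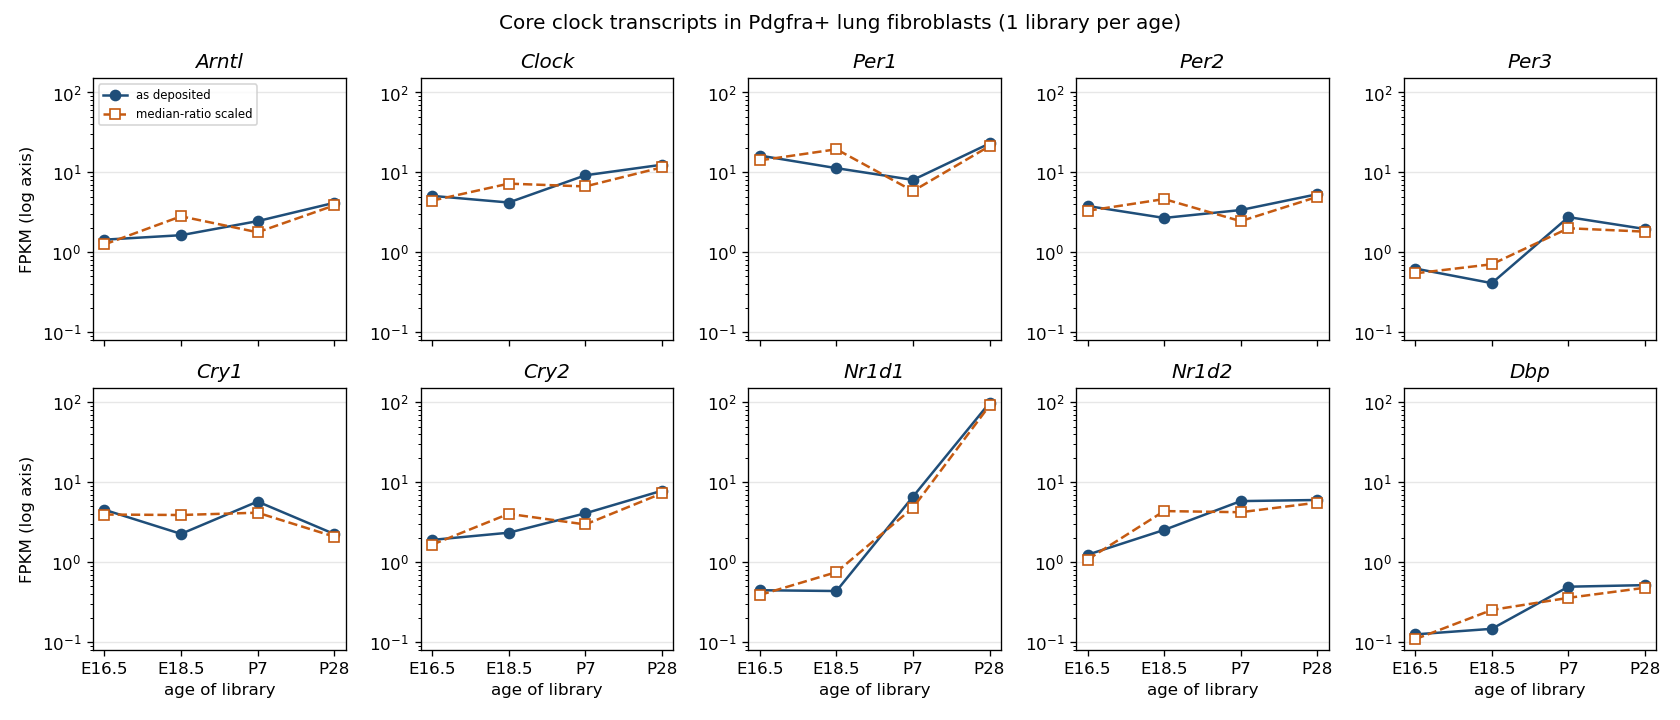
Level of each of the 10 clock transcripts at the 4 ages, in FPKM on a log axis, with 1 library per point. Filled circles are deposited values and open squares are median-ratio scaled values. Nr1d1 climbed from 0.438 FPKM at E18.5 to 98.8 at P28, while Dbp ended at 0.519.

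The highest value of 8 members fell in the P28 library, both as deposited and scaled. They were Arntl, Clock, Per1, Per2, Cry2, Nr1d1, Nr1d2 and Dbp, whereas Per3 and Cry1 were highest at P7. Over the 17128 genes at 0.1 FPKM or more in any library, 29.0% were highest at P28 as deposited and 32.3% scaled. With upper-quartile scaling, another way to level the libraries, Per1, Per2 and Cry1 were highest at E18.5 and 6 members remained highest at P28. The lowest value of 4 members fell at E16.5 and of 4 others at E18.5 as deposited, but after scaling 7 were lowest at E16.5 and 0 at E18.5. Over all genes 16.7% were lowest at E16.5 and 60.3% at E18.5 as deposited, and 28.1% and 27.4% scaled. Both postnatal libraries lay above both fetal libraries for 7 members as deposited, against a background of 31.8% of genes, and for Per3, Nr1d1 and Dbp alone after scaling, against 20.5%. No member had both postnatal libraries below both fetal ones (7.62% of genes as deposited, 19.6% scaled).

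Both activators had their lowest library before birth and their highest at P28. Arntl (GRCm38 chromosome 7, 113207465 to 113314126, plus strand) measured 1.44 (E16.5), 1.64 (E18.5), 2.46 (P7) and 4.17 FPKM (P28). Scaled, it was at 1.26, 2.83, 1.79 and 3.86 in the same order, so the rank of E18.5 and P7 turned over with the scale. The P28 library thus held the highest Arntl level under both settings, 2.89 times the lowest as deposited and 3.07 times scaled.

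Clock (GRCm38 chromosome 5, 76209868 to 76304792, minus strand), the DNA-binding partner of BMAL1, measured 5.09 (E16.5), 4.21 (E18.5), 9.21 (P7) and 12.5 FPKM (P28). Its scaled values were 4.44, 7.25, 6.68 and 11.6. Clock exceeded Arntl in every library, and the ratio of their FPKM stayed within a narrow band, at 3.53, 2.56, 3.74 and 3.00 in order of age. Npas2, which can stand in for CLOCK, measured 0.0764 (E16.5), 0.0177 (E18.5), 0.317 (P7) and 3.29 FPKM (P28). Its ratio to Clock was 0.0150 at E16.5 and 0.264 at P28.

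Among the period genes, whose proteins form the repressor complex with CRY, Per1 was the most abundant at every age and Per3 the least. Per1 (GRCm38 chromosome 11, 69095217 to 69109960, plus strand) measured 16.2 (E16.5), 11.3 (E18.5), 8.06 (P7) and 23.1 FPKM (P28). Scaled, Per1 was at 14.2, 19.5, 5.85 and 21.4, so P7 was the lowest and P28 the highest under both settings. Per1 ranked in the 94.2nd percentile of all symbols at P28 and the 79.7th at P7.

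Per2 (GRCm38 chromosome 1, 91415982 to 91459324, minus strand) varied less, at 3.80 (E16.5), 2.70 (E18.5), 3.39 (P7) and 5.34 FPKM (P28), a span of 1.98 times as deposited. Its scaled values were 3.32, 4.65, 2.46 and 4.95, so the lowest library was E18.5 as deposited and P7 after scaling. Per3 (GRCm38 chromosome 4, 151003652 to 151044665, minus strand) was at 0.628, 0.413, 2.76 and 1.96 FPKM, and both postnatal libraries lay above both fetal ones. Its scaled values were 0.547, 0.711, 2.01 and 1.82, which kept that order of groups. The share of Per3 in the summed FPKM of the period genes, which does not depend on scale, was 3.04% (E16.5), 2.86% (E18.5), 19.4% (P7) and 6.46% (P28). The ratio of Per1 to Per2 was 4.27, 4.19, 2.38 and 4.32, so P7 was the library that stood apart.

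The cryptochrome genes, which encode the stronger repressors of CLOCK and BMAL1, exchanged rank over the course. Cry1 (GRCm38 chromosome 10, 85131700 to 85185064, minus strand) measured 4.55 (E16.5), 2.27 (E18.5), 5.76 (P7) and 2.27 FPKM (P28). Scaled, it was at 3.96, 3.91, 4.18 and 2.10, so P28 was lowest after scaling with the other libraries close together, while as deposited P28 and E18.5 were level. Cry2 (GRCm38 chromosome 2, 92403646 to 92434043, minus strand) was at 1.91, 2.35, 4.10 and 7.86 FPKM, and scaled at 1.66, 4.04, 2.98 and 7.29. Cry1 and Cry2 thus sat at opposite ends at P28. The ratio of Cry1 to Cry2 was 2.38 (E16.5), 0.967 (E18.5), 1.40 (P7) and 0.288 (P28). Cry2 shares 295 exonic bases, 4.67% of its exons, with D930015M05Rik on the other strand, which was under 1 FPKM in every library.

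**Figure D2:**
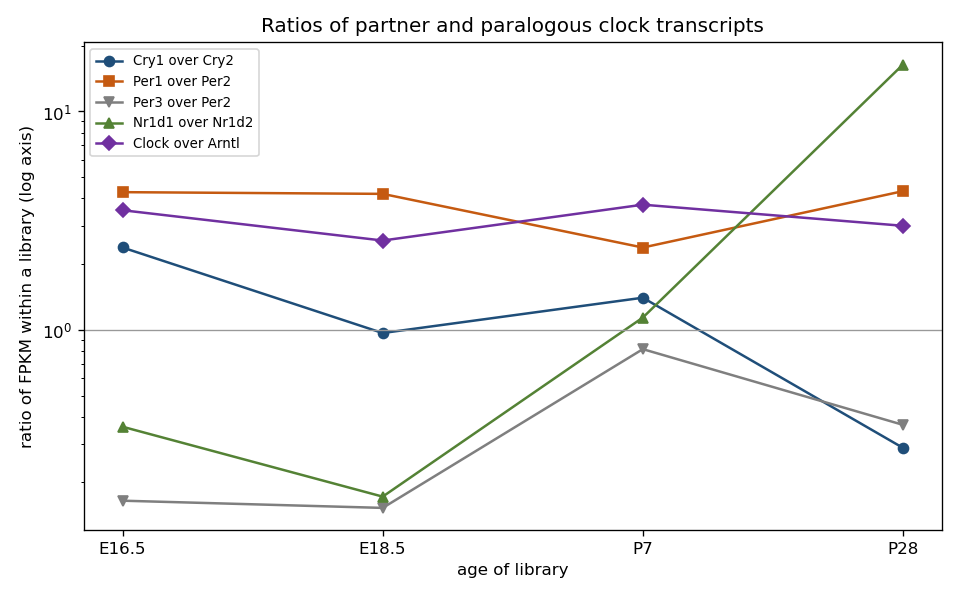
Ratio of FPKM between clock transcripts of the same library at the 4 ages, on a log axis, with 1 library per point and a line at equality. Nr1d1 over Nr1d2 went from 0.360 at E16.5 to 16.4 at P28, Cry1 over Cry2 from 2.38 to 0.288, and Clock over Arntl stayed between 2.56 and 3.74.

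Nr1d1, which encodes REV-ERB alpha, showed the widest range of the 10 genes. Nr1d1 (GRCm38 chromosome 11, 98767932 to 98775333, minus strand) measured 0.448 (E16.5), 0.438 (E18.5), 6.64 (P7) and 98.8 FPKM (P28). Its scaled values were 0.391, 0.754, 4.82 and 91.6, so both postnatal libraries lay above both fetal ones by either measure. P28 exceeded the lowest library 226 times as deposited and 234 times scaled. Its rank among all symbols went from the 47.5th percentile at E16.5 to the 98.9th at P28.

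Nr1d2, which encodes the paralogue REV-ERB beta, did not follow it. Nr1d2 (GRCm38 chromosome 14, 18204054 to 18239127, minus strand) measured 1.25 (E16.5), 2.54 (E18.5), 5.83 (P7) and 6.03 FPKM (P28). Scaled, it was at 1.09, 4.38, 4.24 and 5.58, with E16.5 as the library that stood low. Nr1d1 was thus the lesser of the pair before birth and 16.4 times Nr1d2 at P28.

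The exons of Nr1d1 and Thra, the thyroid hormone receptor alpha gene, overlap on opposite strands over 263 bases, 8.55% of the exonic bases of Nr1d1. Whether counting used strand is not stated in these sources, so reads from those bases cannot be assigned to either gene. Thra measured 12.0 (E16.5), 7.98 (E18.5), 19.2 (P7) and 17.7 FPKM (P28). Nr1d1 over Thra was 0.0374 at E16.5 and 5.59 at P28, so Nr1d1 went past Thra only in the P28 library.

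Dbp stood at the bottom of the set. Dbp (GRCm38 chromosome 7, 45705088 to 45710203, plus strand) measured 0.126 (E16.5), 0.148 (E18.5), 0.496 (P7) and 0.519 FPKM (P28), and scaled at 0.110, 0.254, 0.360 and 0.481. Both postnatal libraries lay above both fetal ones, yet all 4 values are low enough that depth limits them. The ratio of Nr1d1, another E-box target, to Dbp was 3.57 (E16.5), 2.97 (E18.5), 13.4 (P7) and 190.3 (P28). Dbp shares 539 exonic bases, 18.0% of its exons, with Sphk2 on the other strand, and Sphk2 was at 1.01 to 4.77 FPKM.

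To compare the E-box targets with the activator within a library, the mean of log2(FPKM + 1) over Dbp, Nr1d1, Nr1d2, Per1, Per2 and Per3 minus that of Arntl was taken in each library. This contrast was 0.20 (E16.5), 0.02 (E18.5), 0.46 (P7) and 0.78 (P28). The added 1 leaves it dependent on scale, and scaled it was 0.22, -0.07, 0.44 and 0.78, so its sign at E18.5 turned. With a pseudocount of 0.1 both fetal values were negative, at -0.13 and -0.38. Without Nr1d1, a choice made after seeing the data, it was 0.39, 0.20, 0.32 and 0.08, so the high P28 value rested on that gene. Relative to Arntl, Per1 stood at 11.3 (E16.5), 6.89 (E18.5), 3.28 (P7) and 5.53 times (P28), and Cry1 at 3.15, 1.38, 2.34 and 0.543.

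**Figure D3:**
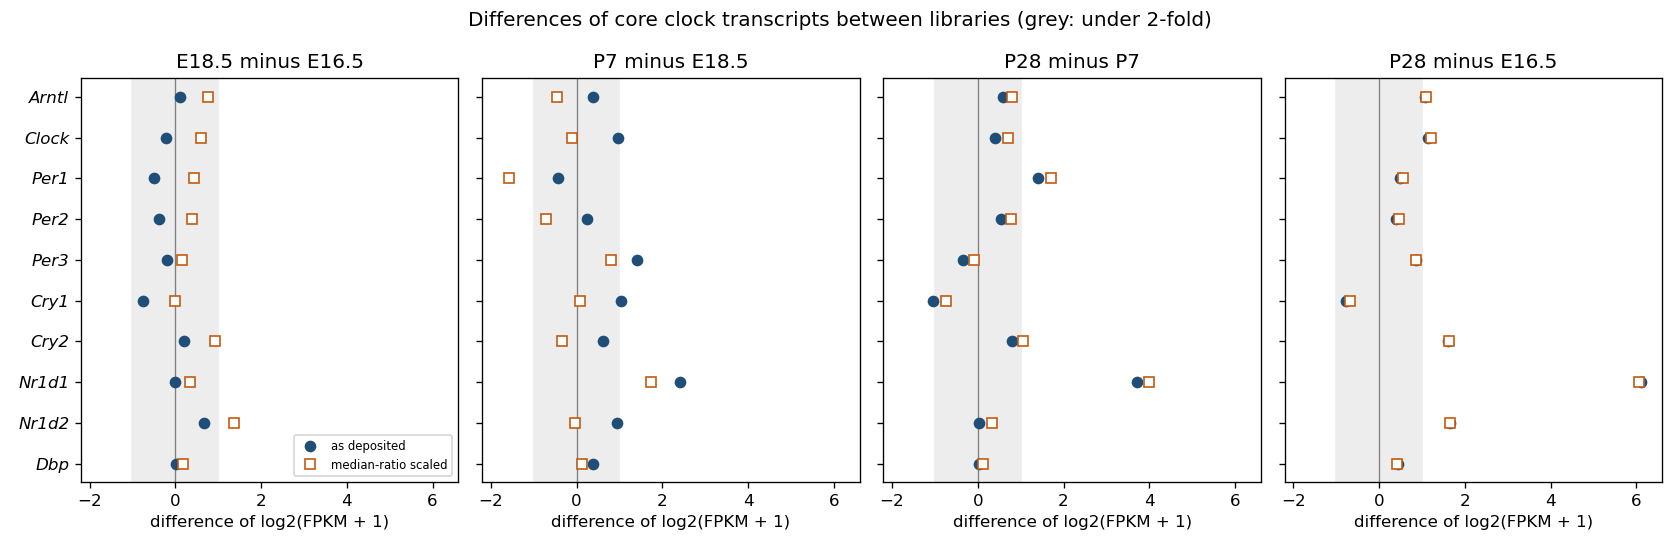
Difference of log2(FPKM + 1) between libraries for the 10 clock transcripts in 4 comparisons, older minus younger, with 1 library per age. Filled circles are deposited and open squares scaled values, and grey marks differences under 2-fold. Nr1d1 lay at 6.11 (6.06 scaled) for P28 against E16.5.

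A transcript was then counted as higher or lower where the log2(FPKM + 1) difference reached 1 (2-fold) with at least 5 FPKM in the upper of the pair. Between E16.5 and E18.5, 2 members reached 5 FPKM and 0 of 10 were higher or lower under either setting. The background over all genes was 0.812% higher and 16.6% lower as deposited, and 3.29% and 4.29% scaled. Here and below, unless stated, shares of all genes are over the 17128 genes at 0.1 FPKM or more in any library. These include genes that did not reach 5 FPKM. Of genes at 5 FPKM or more in the upper library, 2.32% were higher and 47.4% lower as deposited, and 9.34% and 12.2% scaled. Members' median log2 difference was -0.11 as deposited, beside -0.47 over all genes, and 0.41 scaled, beside 0. Nr1d2 had the largest scaled difference, 1.37, at a level below the 5 FPKM minimum.

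Between E18.5 and P7, Cry1 and Nr1d1 were higher as deposited (log2 differences 1.05 and 2.41), 2 of 10 members beside 24.4% of all genes. After scaling neither counted, since Cry1 came to 0.08 and Nr1d1, at 1.73, ended at 4.82 scaled FPKM, just under the minimum. Scaled, Per1 was the 1 member lower at P7 (-1.58; -0.44 as deposited), beside 4.31% of genes lower and 5.28% higher. As deposited 0 members and 1.12% of genes were lower. Of genes at 5 FPKM or more in the upper library, 63.3% were higher and 2.89% lower as deposited, and 14.7% and 12.0% scaled. Of the members, 5 reached that minimum as deposited and 2 scaled. The members' median was 0.78 as deposited and -0.07 scaled, against 0.59 and 0 over all genes.

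From P7 to P28, Nr1d1 and Per1 were higher under both settings. The log2 difference of Nr1d1 was 3.71 as deposited and 3.99 scaled, and that of Per1 was 1.41 and 1.71. Cry2 joined them after scaling (1.06; 0.80 as deposited), giving 3 of 10 members beside 5.44% of genes, against 2 of 10 beside 4.36% as deposited. Cry1 was lower as deposited (-1.05), 1 of 10 beside 7.02% of genes, and not scaled (-0.74), where 0 members and 3.82% of genes were lower. Of genes at 5 FPKM or more in the upper library, 10.5% were higher and 16.9% lower as deposited, and 14.6% and 10.3% scaled. Of the members, 7 reached that minimum as deposited and 5 scaled. The members' median was 0.47 as deposited and 0.75 scaled, while that of all genes was -0.08 and 0.03.

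Across the whole span, P28 against E16.5, Clock, Cry2, Nr1d1 and Nr1d2 were higher under both settings and 0 members were lower. These were 4 of 10 members beside 7.42% of all genes as deposited and 7.65% scaled. Of genes with at least 5 FPKM in the upper library of the pair, 18.0% and 19.7% were higher. Of the members, 6 reached that minimum as deposited and 5 scaled. The log2 differences were 1.15 for Clock, 1.61 for Cry2, 6.11 for Nr1d1 and 1.65 for Nr1d2 as deposited. Arntl also passed 2-fold, at 1.08, but its P28 level lay below 5 FPKM. Cry1 was the 1 member with a negative difference, -0.76 as deposited and -0.68 scaled. Lower genes made up 6.97% of the background as deposited and 5.82% scaled. Of genes with at least 5 FPKM in the upper library, they made up 16.9% and 15.0%. The median of the 10 members was 0.97 as deposited and 0.99 scaled, beside 0 and 0.02 over all genes. With a pseudocount of 5 or a 4-fold threshold 1 member was higher in place of 4.

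Markers of other cells also differed between the libraries, not all in the direction of these P28 values. Fibroblast markers summed to 1857 (E16.5), 1532 (E18.5), 3093 (P7) and 7302 FPKM (P28), also highest at P28. Of 10 alveolar epithelial markers 9 were higher at P28 than at P7, and of 5 airway markers 4 were, under both settings. Over all genes the share was 4.36% as deposited and 5.44% scaled. The alveolar list summed to 33.1 (E16.5), 118 (E18.5), 31.1 (P7) and 11870 FPKM (P28), and the airway list to 2.63, 32.7, 27.0 and 19832. Sftpd, Aqp5 and Scgb3a1 were listed at 0 at E16.5 and Scgb3a1 at P7, and no marker of either list was at 0 at P28. Endothelial markers summed to 33.2, 38.0, 1149 and 285 FPKM, highest at P7, and none was at 0. Leukocyte markers summed to 1834, 103, 19.3 and 5066 FPKM, with Lyz2 at 5062 at P28 and S100a8 listed at 0 there, and erythroid markers to 67.2, 616, 21.7 and 1.65. The 9 leukocyte markers other than Lyz2 were lower at P28 than at E16.5 under both settings, beside 6.97% and 5.82% of all genes. The part of all these cell types in the clock values was not tested.

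Per1 is also known as a gene that glucocorticoids and immediate early signals induce, so those lists are given beside it. Of 10 glucocorticoid response genes 9 were higher at P28 than at P7 under both settings, and the list summed to 237 (E16.5), 361 (E18.5), 347 (P7) and 902 FPKM (P28), or 207, 622, 252 and 836 scaled. Dusp1, on both lists, made up 218 of the P7 sum and Sgk1 77.0, while 6 of the 10 genes were lower at P7 than at E18.5 as deposited and 8 scaled. Of 16 handling and dissociation genes 8 were higher at P28 than at P7 under both settings, with sums of 1440, 1366, 633 and 1253 FPKM. Scaled, these were 1256, 2353, 459.8 and 1162, with E18.5 in place of E16.5 as the highest. At P28 against P7, 4.36% of all genes were higher as deposited and 5.44% scaled. At P7 against E18.5, 1.12% of all genes were lower as deposited and 4.31% scaled. No gene of either list was at 0 in any library. P7 was thus the library with the lowest Per1 and the lowest handling sum. The highest libraries differed, with Per1 highest at P28 and the handling sum at E16.5 as deposited and E18.5 scaled. The glucocorticoid sum was lowest at E16.5 under both settings. The part of either response in Per1 was not tested.

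Other factors of the loops were taken from lists that share no member with the 10 genes. Of 10 measured loop factors, Rora was the 1 gene higher at E18.5 than at E16.5 under both settings (1 higher as deposited, 2 scaled, beside 0.812% and 3.29% of all genes), and also the 1 gene higher at P28 than at E16.5 (7.42% of all genes, 7.65% scaled), where Nfil3 was lower as deposited and not scaled. As deposited 1 was higher and 2 lower at P7 than at E18.5 (0 and 2 scaled), beside 24.4% and 1.12% of all genes (5.28% and 4.31% scaled). At P28 against P7, 0 were higher and 1 lower (1 and 1 scaled), beside 4.36% and 7.02% (5.44% and 3.82%). Rora, the ROR activator of Arntl, measured 4.07 (E16.5), 9.35 (E18.5), 13.7 (P7) and 22.2 FPKM (P28), and scaled at 3.55, 16.1, 9.97 and 20.6. Its ratio to Nr1d1, which competes for the same element, was 9.07, 21.3, 2.07 and 0.225. Rora thus exceeded Nr1d1 in every library but P28.

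Bhlhe40 and Nfil3 were lower at P7 than at E18.5 under both settings. Bhlhe40, an E-box repressor also called DEC1, measured 23.1 (E16.5), 28.2 (E18.5), 9.12 (P7) and 16.4 FPKM (P28). Nfil3, the D-box repressor that opposes DBP, was at 22.3, 15.1, 6.47 and 10.6 FPKM. The ratio of Nfil3 to Dbp was 177 (E16.5), 102 (E18.5), 13.0 (P7) and 20.5 (P28).

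The PAR bZIP relatives of DBP were more abundant than Dbp itself. Hlf measured 5.39 (E16.5), 5.06 (E18.5), 19.1 (P7) and 6.06 FPKM (P28), and was lower at P28 than at P7 under both settings (log2 differences -1.51 and -1.17 scaled). Tef was at 1.88, 1.23, 3.85 and 3.57 FPKM. Hlf exceeded Dbp by 11.7 times at P28 and by 34.3 to 42.9 times at the other ages. Gm129, the older symbol of the repressor Ciart, was at 0.450, 0.165, 3.18 and 1.01 FPKM, with its highest value at P7 as for Per3 and Cry1 as deposited.

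**Figure D4:**
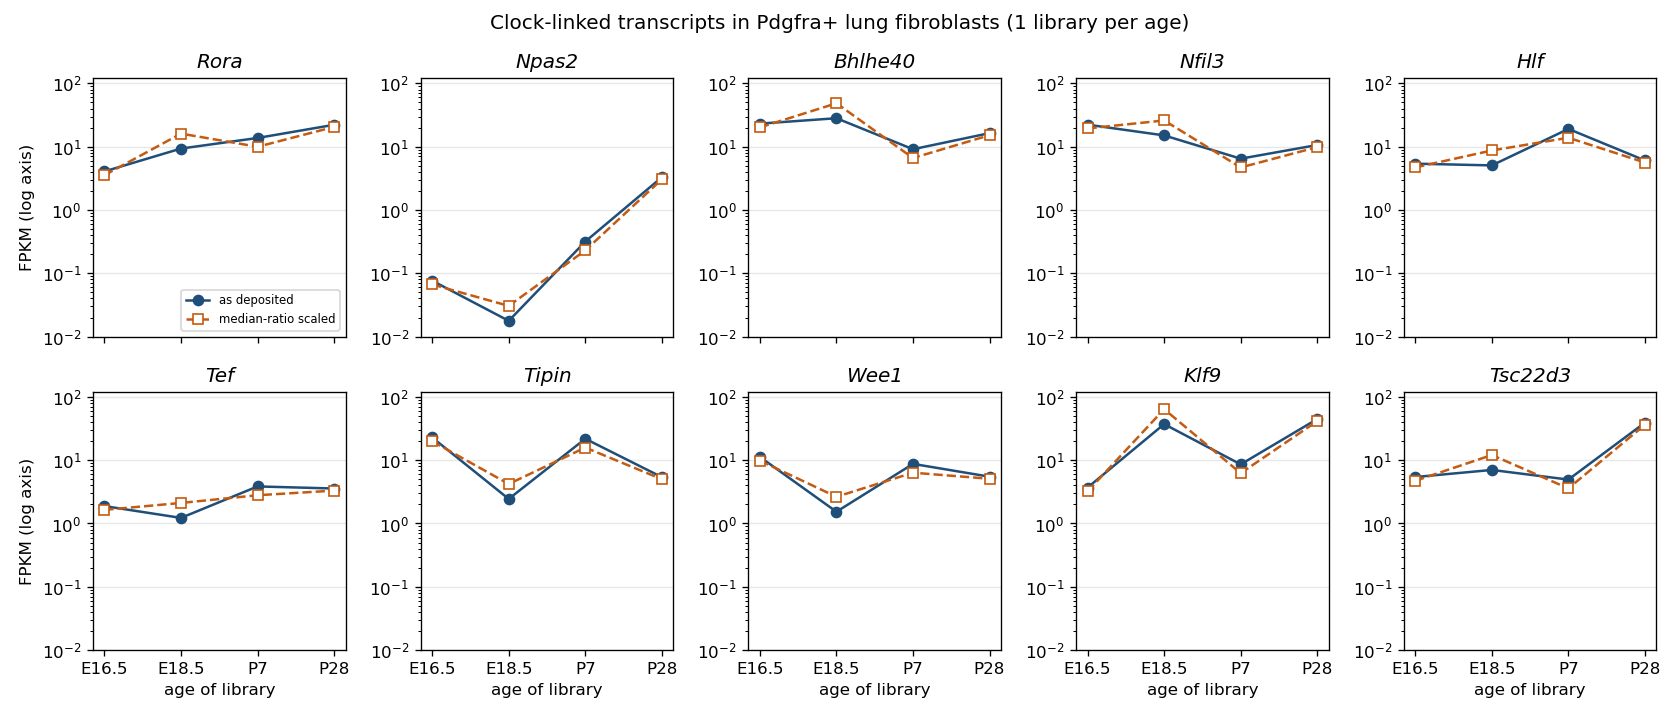
Level of 10 clock-linked transcripts at the 4 ages, in FPKM on a log axis, with 1 library per point. Filled circles are deposited and open squares scaled values. Klf9 was high at E18.5 (37.2) and P28 (44.8) and low at E16.5 (3.69) and P7 (8.59).

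Of 14 genes whose products modify or degrade PER and CRY, among them the kinases Csnk1d and Csnk1e, 0 were higher or lower in any of the 4 comparisons after scaling, where 3.29% to 7.65% of all genes were in each direction. As deposited 3 were lower at E18.5 than at E16.5, beside 16.6% of all genes, 5 higher at P7 than at E18.5, beside 24.4%, and 1 lower at P28 than at P7, beside 7.02%. Ppp1ca, a phosphatase catalytic subunit, was at 46.2, 19.1, 47.7 and 29.4 FPKM, and the related Ppp1cb at 32.4, 25.0, 44.6 and 34.0, above it at E18.5 and P28.

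Of 11 chromatin and nuclear partners of the clock, Tipin, Nono and Sfpq were lower at P28 than at E16.5 under both settings. The share was 6.97% of all genes as deposited and 5.82% scaled, or 16.9% and 15.0% of those at 5 FPKM or more. Of the 11, 9 reached that minimum. At E18.5 against E16.5, 3 were lower (2 scaled), beside 16.6% and 4.29% of all genes. At P7 against E18.5, 3 were higher (1 scaled), beside 24.4% and 5.28%. At P28 against P7, 3 were lower (2 scaled), beside 7.02% and 3.82%. Tipin, which partners Timeless at the replication fork, measured 22.9 (E16.5), 2.44 (E18.5), 21.8 (P7) and 5.40 FPKM (P28). Mitosis markers moved with it, summing to 317, 28.7, 226 and 21.7 FPKM, and their part in the Tipin values was not tested. Nono, an RNA-binding partner of PER, was at 169, 37.8, 136 and 49.9 FPKM.

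Among 15 measured genes that the clock is known to drive in other tissues, Tsc22d3, Por, Cdkn1a and Klf9 were higher at P28 than at P7 under both settings, and Klf10 and Hlf were lower, beside 4.36% of all genes higher and 7.02% lower as deposited and 5.44% and 3.82% scaled. At E18.5 against E16.5, 1 was higher and 1 lower as deposited (5 and 1 scaled), beside 0.812% and 16.6% of all genes (3.29% and 4.29% scaled). At P7 against E18.5, 3 were higher and 3 lower (1 and 4 scaled), beside 24.4% and 1.12% (5.28% and 4.31%). At P28 against E16.5, 3 were higher and 1 lower as deposited (3 and 0 scaled), beside 7.42% and 6.97% (7.65% and 5.82%). Hlf, Nfil3 and Tef are counted here as well as among the loop factors. Klf9, a Kruppel-like repressor, measured 3.69 (E16.5), 37.2 (E18.5), 8.59 (P7) and 44.8 FPKM (P28), alternating high and low. Tsc22d3, which encodes the glucocorticoid-induced leucine zipper protein, was at 5.42, 7.02, 4.94 and 39.2 FPKM. Klf9, Tsc22d3 and Cdkn1a are also on the glucocorticoid list. Por, the electron donor of cytochrome P450 enzymes, was at 9.45, 10.8, 21.8 and 48.5 FPKM, higher at each later age as deposited but with E18.5 above P7 after scaling (18.7 and 15.8). Wee1, a kinase that holds cells before mitosis, was at 11.3, 1.53, 8.75 and 5.49 FPKM, with E18.5 the lowest.

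The profiles most like those of Nr1d1 and Arntl were sought among 7697 genes by the Euclidean distance of centred, scaled log2(FPKM + 1) values over the 4 libraries. Nearest to Nr1d1, the member with the widest range, were Pcolce2 (distance 0.508), a procollagen processing enhancer at 280.02 FPKM at P28, Serpina3n (0.566) and Npnt (0.661). At E18.5 Pcolce2 stood at 1.20 FPKM and at P7 at 15.3. Nearest to Arntl were Trabd2b (0.0816), Iscu (0.0836) and Pld1 (0.0898). With 4 libraries such likeness is a description only.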

How the data were processed

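RNA from sorted Pdgfra-positive lung fibroblasts was profiled at 4 ages, 1 library each. The authors deposited FPKM per gene; alignment tools (TopHat, TopHat2 2.0.9) and builds (GRCm38, mm10) are those of the submitters' processing notes, and which program computed the FPKM is not stated there. Rows sharing a symbol were summed (23931 entries, 23444 symbols). Differences are of log2(FPKM + 1), which understates changes of low genes. Median-ratio factors came from the 7930 genes at 1 FPKM or more in every library. The members and gene lists were chosen with earlier results of these data known. Named were all 10 members and, of each list, at most 4 genes per comparison past 2-fold and 5 FPKM under both scalings, plus the most abundant; Npas2, Tef, Gm129, Sphk2, D930015M05Rik, Csnk1d, Csnk1e, Klf10, Ppp1cb, Dusp1, Sgk1, S100a8, Pdgfra and markers at 0 were added after their values were seen. Ciart and Noct are listed under older symbols, and Gm129 (Ciart) is counted with the output genes only. Coordinates and exon overlaps are from GENCODE M21, promoters from RefSeq. In simulated libraries of unequal scale, 4-fold changes were recovered without false calls after scaling. Calls without scaling missed some changes and included false ones. The simulation held only genes with a mean of 20 FPKM or more, with little noise. It cannot speak to calls near 2-fold or near 5 FPKM, so it checks the code and not the member calls. Alternatives were other scalings, pseudocounts, minima and a 4-fold threshold. Python 3.11.15, numpy 2.4.6, pandas 2.3.3 and matplotlib 3.10.9 were used.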

Additional observations from a re-analysis of the deposited data

How the results depend on the processing

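With 1 library per age no replicate could be left out, and depth limits Dbp, Per3 and the fetal Nr1d1 values most. No paired analysis was possible because each age has 1 library. Differences of single members under other scalings or pseudocounts kept the sign of every counted difference except Cry1 at P7 against E18.5, which came to -0.0096 with upper-quartile scaling. Differences that were not counted often changed sign. Of all 10 members, 4 had a positive difference at E18.5 against E16.5 as deposited and 9 scaled. At P7 against E18.5 these numbers were 9 and 4. The cause of the changes below was not tested, apart from stricter thresholds, which count fewer genes.

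Clock members higher at P7 than at E18.5 numbered 2 as deposited, 0 with either scaling, 4 with a pseudocount of 0.1, 1 with a pseudocount of 5, 0 with a minimum of 20 FPKM and 1 at 4-fold; members lower numbered 0, and 1 with either scaling. At P28 against P7, 2 were higher, or 1 at 4-fold, and 1 was lower, or 0 with either scaling, a pseudocount of 5, a minimum of 20 FPKM or 4-fold. At P28 against E16.5, 4 were higher, or 1 with a pseudocount of 5, a minimum of 20 FPKM or 4-fold. Over all genes, 24.4% were higher and 1.12% lower at P7 than at E18.5 as deposited (5.28% and 4.31% scaled). At P28 against P7, 4.36% were higher and 7.02% lower (5.44% and 3.82% scaled). At P28 against E16.5, 7.42% were higher (7.65% scaled).

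Of 46 clock-linked genes, 2 were higher at E18.5 than at E16.5, or 7 with either scaling and 1 with a pseudocount of 5, a minimum of 20 FPKM or 4-fold; 7 were lower, or 3 with either scaling or at 4-fold. At P7 against E18.5, 11 were higher, or 2 with median-ratio scaling, 1 with upper-quartile scaling and 1 at 4-fold, and 4 were lower, or 0 at 4-fold. At P28 against P7, 4 were higher and 6 lower, or 2 and 0 at 4-fold. At P28 against E16.5, 4 were lower, or 7 with no minimum and 0 at 4-fold. Over all genes, 0.812% were higher and 16.6% lower at E18.5 than at E16.5 as deposited (3.29% and 4.29% scaled). At P7 against E18.5 the shares were 24.4% and 1.12% (5.28% and 4.31% scaled). At P28 against P7 they were 4.36% and 7.02% (5.44% and 3.82% scaled). At P28 against E16.5, 6.97% were lower (5.82% scaled).

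Members lowest at E16.5 numbered 4, or 7 with either scaling; lowest at E18.5, 4 or 0; lowest at P7, 1 or 2. Members highest at E18.5 numbered 0, or 3 with upper-quartile scaling, and highest at P7, 2 or 1. The contrast against Arntl at P28 was 0.78, or 0.077 without Nr1d1. At E18.5 it was 0.02, or -0.07 with median-ratio scaling, -0.08 with upper-quartile scaling and -0.38 with a pseudocount of 0.1, which also turned E16.5 from 0.20 to -0.13.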
